A study of Rattus norvegicus with 11 samples.

Results

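The immediate early genes described here are 10 of the 16572 genes measured after traumatic brain injury (TBI) in the rat dentate gyrus, on the injured left side: Fos, Fosb, Junb, Arc, Egr1, Egr2, Egr3, Egr4, Nr4a1 and Npas4. They were chosen by name as genes that neurons switch on within minutes of activity, not by their values on these arrays. Each was read from its 1 probe set that carries a single gene symbol, and all 10 stayed above the background value used here on every array. That value was only 3.06, and its filter dropped 739 of 18644 probe sets, so staying above it says little about detection. Egr2, Npas4, Fosb and Fos had low signals, with means of 4.24, 4.74, 4.90 and 5.07 over the 11 arrays. These means lay below every array's median, 5.26 to 5.35. The TBI group, labelled FPI, held 6 male Sprague-Dawley rats whose brain was injured by lateral fluid percussion, a brief pressure wave of fluid let against the opened skull over the intact dura. The control group held 5 sham-operated male rats of the same strain, which went through anesthesia and the surgery without the impact. Tissue was taken 90 days after the operation from rats decapitated under CO2 anesthesia, and the dentate gyrus was cut along the hippocampal fissure with the hilus included. Each rat gave 1 Affymetrix array, and values are log2 signals normalized together over the 11 arrays.

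Immediate early genes need no new protein for their own transcription: calcium entry and kinase signaling act on transcription factors that already sit on their promoters, chiefly CREB, SRF with its partners, and MEF2. Their RNAs appear quickly and are lost quickly, so that a tissue sample reads the activity of the last part of an animal's life. In the dentate gyrus, granule cells fire sparsely and few of them express Arc or Fos at a time, while seizures induce these genes in nearly the whole granule cell layer. Most of the 10 encode transcription factors that act on later genes, and Arc acts at synapses.

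The dissection and the labels were checked on marker genes. The granule cell markers Prox1 and C1ql2 averaged 9.31 ± 0.07 and 9.36 ± 0.21 in TBI rats (SD, n = 6), against 9.27 ± 0.11 and 9.55 ± 0.08 in control rats (SD, n = 5). Of the other granule cell markers, Calb1 averaged 8.04 in TBI and 8.05 in control rats. Dsp averaged 4.84 and 4.81, and Tdo2 3.35 and 3.30, which are low signals. Wfs1, a marker of the hippocampal field CA1, averaged 7.44 and 7.42. It was 8.57 in control rat 1 and at most 8.20 in the other rats. Gfap, the filament protein of reactive astrocytes, averaged 10.26 ± 0.10 in TBI rats and 9.43 ± 0.03 in control rats (limma, adjusted p = 1.43e-05). Array medians lay between 5.26 and 5.35. A component computed over all other probe sets held 63.9% of the variance within the groups, and TBI rats 1 and 3 and control rat 2 stood apart on it, at 0.42 to 0.49 against -0.34 to 0.06 in the other 8 rats.

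No difference between TBI and control rats passed the test in any of the 10 genes. In limma, 0 of 10 passed an adjusted p of 0.05, against 0.151% of the 17905 probe sets tested. At an unadjusted p of 0.05, 0 of 10 passed in limma, against 6.82% of the probe sets. For 0 of 10 were the groups free of overlap, against 1.04% of the probe sets. The adjusted p-values ran from 0.841 to 0.998, and the exact two-sided permutation p over the 462 splits of the rats was 0.126 at its lowest. The log2 difference, TBI minus control, was negative for 9 genes and positive for 1. Its median was -0.03 over the 10 genes and 0.01 over all genes, of which 42.7% had a negative difference. In bulk tissue, fewer active cells and less RNA per cell cannot be told apart, and a small set of strongly expressing granule cells is averaged with all the others.

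**Figure D1:**
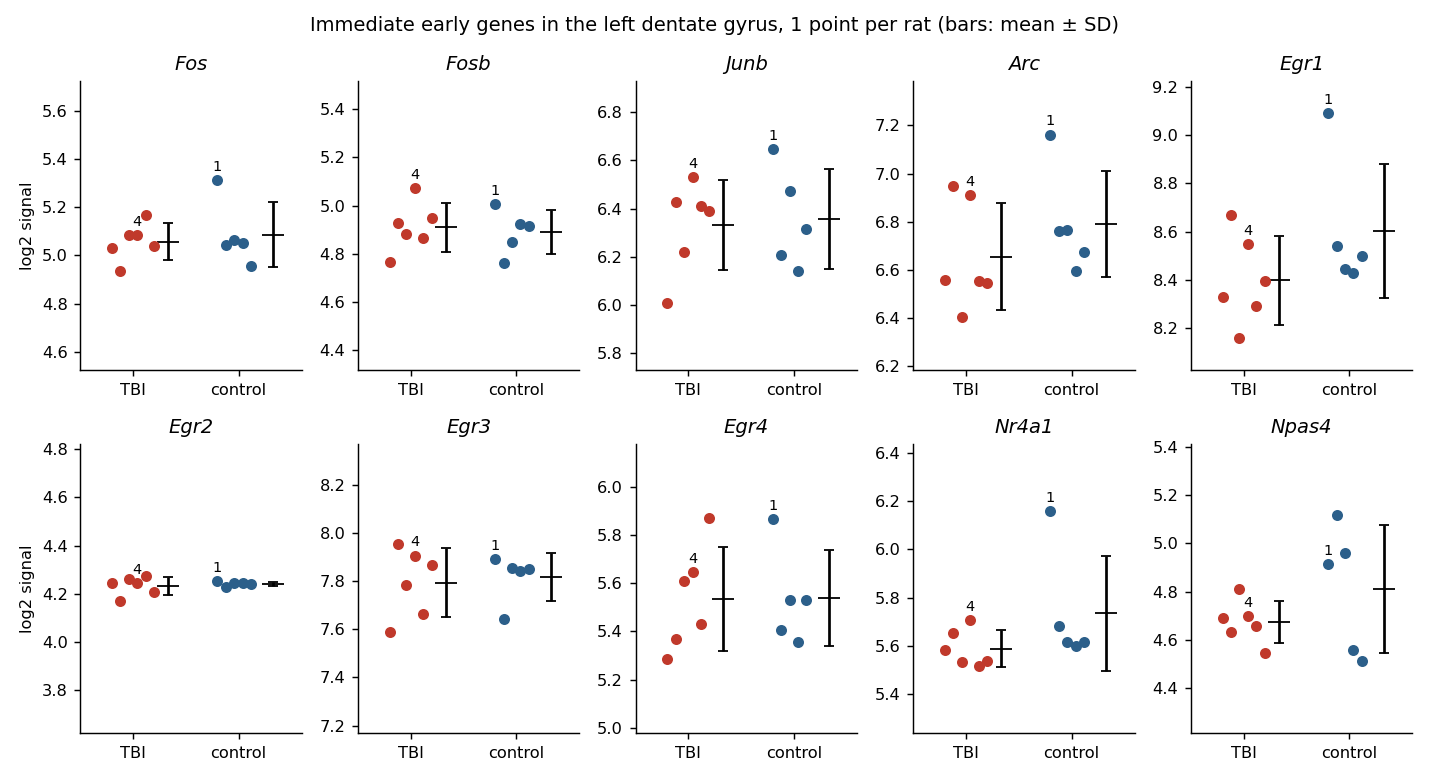
The log2 signal of each gene (y axis, a span of 1.2 in every panel) is plotted for 6 TBI rats and 5 control rats, 1 point per rat, with the mean and SD of each group at its right. Control rat 1 and TBI rat 4 are marked by their numbers, and the groups overlap in all 10 panels.

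The AP-1 genes come from the Fos and Jun families, whose proteins pair up to bind DNA as the AP-1 factor. Fos, the most used marker of recent neuronal activity, was lowest at 4.93 in TBI rats, with a median of 5.06 and a highest value of 5.17. Its values in control rats 1 to 5 were 5.31, 5.04, 5.06, 5.05 and 4.95. Control rat 1 therefore lay above all 6 TBI rats, while the other 4 control rats lay within the TBI range. The log2 difference in Fos was -0.03 ± 0.06 (SE, adjusted p = 0.956 in limma), with a 95% interval of -0.16 to 0.11. Fosb, whose truncated splice product accumulates when activity is repeated, ran from 4.77 to 5.07 in TBI rats with a median of 4.90. Fosb in the 5 control rats was 5.01, 4.76, 4.85, 4.92 and 4.91. It was the 1 gene with a positive difference, 0.02 ± 0.06 (SE, adjusted p = 0.970 in limma), and the sign turned to -0.0016 when arrays were centred on their medians and to -0.0038 after a second quantile normalization. Junb, a Jun protein that activates AP-1 sites less than Jun does, had a lowest value of 6.01, a median of 6.40 and a highest value of 6.53 in TBI rats. The control rats had 6.65, 6.21, 6.47, 6.14 and 6.32 for Junb. The groups covered nearly the same span, and the difference was -0.03 ± 0.11 (SE, adjusted p = 0.983 in limma).

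Arc encodes the activity-regulated cytoskeleton protein, whose RNA travels into dendrites and whose protein helps remove AMPA receptors from synapses. Arc ran from 6.41 to 6.95 in TBI rats, with a median of 6.56. The control rats had 7.16, 6.76, 6.76, 6.59 and 6.68. TBI rats 1, 3, 5 and 6 lay below every control rat, and TBI rats 2 and 4 lay among or above the 4 lower control rats. The difference in Arc was -0.14 ± 0.12 (SE, adjusted p = 0.889 in limma), a fold of 0.909, and its 95% interval ran from -0.40 to 0.12. It was -0.044 without control rat 1 and -0.087 without TBI rat 3.

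The EGR genes encode zinc finger factors that bind GC-rich sites, and Nr4a1 encodes an orphan nuclear receptor. The promoters of 7 of the 10 genes, Fosb, Junb, Egr1, Egr2, Egr4, Nr4a1 and Npas4, were found in the RefSeq table of build GRCr8, as windows of 250 bases before to 50 bases after the transcription start. The full cyclic AMP response element (CRE, TGACGTCA) was in 0 of the 7 windows, against 1.83% of 33469 windows of the same length over all genes. Its one-sided form TGACG, which the full element contains on both strands, was in 5 of 7 (21.2% of all windows). The CArG box, the site of SRF, was searched only in its strict form CCWWWWWWGG, where W is A or T. It was in 2 of 7 (1.64% of all windows), namely at 2 places for Egr1 and at 1 for Egr2. Looser forms of the box were not searched. An EGR site, GCGTGGGCG or GCGGGGGCG on either strand, was in 1 of 7, Nr4a1 (3.20% of all windows). The letters of a TATA box, TATAAA or TATATA on the gene's strand, were in 4 of 7 (13.2% of all windows): Fosb, Junb, Egr4 and Npas4. Counted from the start, they lay at bases -30 to -25 for Egr4 and -49 to -44 for Junb. They lay farther off at -149 to -144 for Npas4 and -172 to -167 for Fosb. A match to these letters is no proof of binding. The 250 bases before the start are printed 5′ to 3′ on the gene's strand for Egr1 and Nr4a1, whose values moved together over rats, and for Egr2, which holds 1 of the CArG boxes of Egr1 and whose correlation with Egr1 did not pass. The windows are chr18:26736828-26737077 on the plus strand for Egr1, chr7:134259888-134260137 on the plus strand for Nr4a1 and chr20:21054442-21054691 on the minus strand for Egr2. Capitals mark TGACG, which reads CGTCA where it lies on the opposite strand, and the CArG boxes.
Egr1: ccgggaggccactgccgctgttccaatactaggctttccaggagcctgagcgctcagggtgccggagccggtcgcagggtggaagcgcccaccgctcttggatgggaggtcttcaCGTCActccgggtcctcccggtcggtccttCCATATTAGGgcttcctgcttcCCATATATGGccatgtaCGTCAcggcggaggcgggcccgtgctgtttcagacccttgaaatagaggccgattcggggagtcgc
Nr4a1: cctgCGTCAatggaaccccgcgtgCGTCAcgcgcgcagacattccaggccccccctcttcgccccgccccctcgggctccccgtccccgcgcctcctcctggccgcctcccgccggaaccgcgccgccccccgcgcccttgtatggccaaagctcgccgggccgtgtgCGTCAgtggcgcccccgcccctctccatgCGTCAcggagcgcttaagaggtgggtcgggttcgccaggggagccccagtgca
Egr2: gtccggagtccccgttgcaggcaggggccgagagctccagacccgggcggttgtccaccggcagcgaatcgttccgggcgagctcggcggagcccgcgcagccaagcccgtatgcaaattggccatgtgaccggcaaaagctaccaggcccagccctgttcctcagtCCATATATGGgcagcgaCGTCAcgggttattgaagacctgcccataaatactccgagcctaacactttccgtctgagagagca
The CArG boxes of Egr1 lie at bases -105 to -96 and -83 to -74 counted from the start, and that of Egr2 at -83 to -74 has the same letters as the nearer box of Egr1. The EGR site of Nr4a1 lies at -73 to -65, between its TGACG copies at -82 to -78 and -53 to -49.

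Egr1, also called Zif268 and tied to the late phase of synaptic plasticity, had the most negative difference of the 10. In TBI rats it was 8.16 at its lowest, 8.36 at the median and 8.67 at its highest. The control rats had 9.09, 8.54, 8.44, 8.43 and 8.50. Control rat 1 stood 0.551 above the next control rat, the other 4 control rats lay within a narrow band, and TBI rats 1, 3, 5 and 6 lay below all of them. The difference was -0.20 ± 0.12 (SE, adjusted p = 0.841 in limma; exact permutation p = 0.186), a fold of 0.869, with a 95% interval of -0.48 to 0.07. It was -0.080 without control rat 1. Nr4a1, also known as Nur77, ran from 5.52 to 5.71 in TBI rats with a median of 5.56. Its control values were 6.16, 5.68, 5.62, 5.60 and 5.62. Control rat 1 again stood far above the rest, and TBI rats 1, 3, 5 and 6 again lay below every control rat. The difference in Nr4a1 was -0.15 ± 0.09 (SE, adjusted p = 0.845 in limma; exact permutation p = 0.126), and it was -0.040 without control rat 1. Of the 10 genes, 3 (Arc, Egr1 and Nr4a1) had at least 4 of 6 TBI rats below every control rat, which held for 6.19% of the probe sets. These 3 genes are strongly correlated over rats, so the count does not stand for 3 separate observations, and the shared rats were noticed after their values were seen.

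The other EGR genes showed no such order. Egr3, which mice need to form muscle spindles, ran from 7.59 to 7.95 in TBI rats with a median of 7.82. The control rats had 7.89, 7.64, 7.86, 7.84 and 7.85. The TBI rats spread to both sides of 4 closely spaced control rats, and the difference was -0.02 ± 0.07 (SE, adjusted p = 0.971 in limma). Egr4 ran from 5.29 to 5.87 in TBI rats with a median of 5.52, and its control values were 5.87, 5.41, 5.53, 5.36 and 5.53. TBI rat 6 and control rat 1 were the highest and close to each other, and the difference was -0.0034 ± 0.11 (SE, adjusted p = 0.998 in limma). Egr2, known as Krox20 for its role in hindbrain patterning and myelination, ran only from 4.17 to 4.27 in TBI rats and from 4.23 to 4.25 in control rats. The deposited value was identical, 4.24, in 4 of the 11 rats, and at least 4 rats share a value in 12.2% of all genes. The difference in Egr2 was -0.0082 ± 0.03 (SE, adjusted p = 0.980 in limma).

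Npas4 encodes a factor that is induced by calcium entry in neurons and adjusts their inhibitory synapses. It ran from 4.55 to 4.81 in TBI rats with a median of 4.67. The control rats had 4.91, 5.12, 4.96, 4.56 and 4.51. Control rats 1 to 3 lay above all 6 TBI rats, control rat 4 within their range and control rat 5 below it, so the control group spanned the whole range of the gene. The difference was -0.14 ± 0.10 (SE, adjusted p = 0.871 in limma), with a 95% interval of -0.36 to 0.09. Leaving out 1 rat moved it to either side: it was -0.063 without control rat 2, and -0.21 without control rat 5 (unadjusted p = 0.045, adjusted p = 0.860 in limma).

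**Figure D2:**
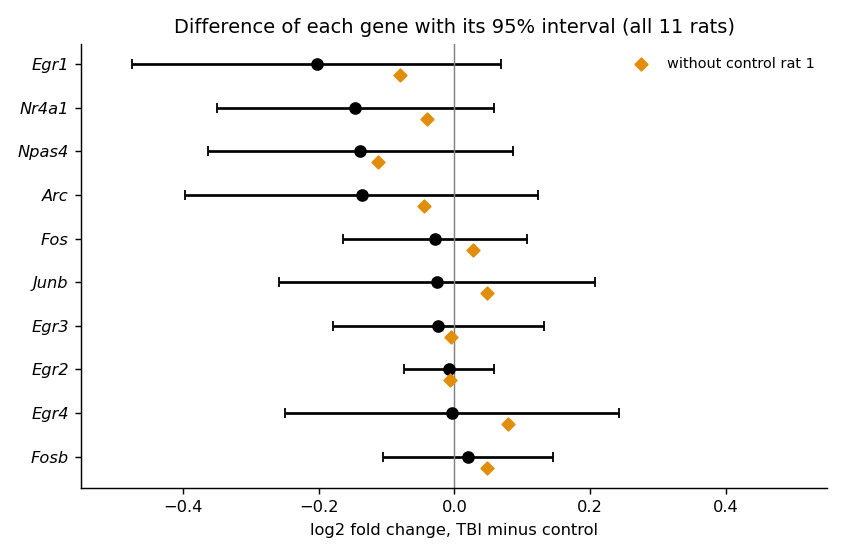
Each gene's log2 difference, TBI minus control (x axis), is a black point with its 95% interval from limma over 11 rats. All 10 intervals cover 0, and the orange diamonds, the differences without control rat 1, lie nearer to 0 for Egr1 at -0.080 and Nr4a1 at -0.040.

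Other genes of the same response were read from 5 lists. Of the other genes listed for AP-1 and ATF dimers, 5 of 6 were measured and 0 passed in limma. Their median difference was 0.07, with 4 positive and 1 negative. Atf3, a stress-induced repressor of the ATF family, averaged 3.81 ± 0.07 in TBI rats and 3.63 ± 0.14 in control rats (SD), a difference of 0.18 at an unadjusted p of 0.012 and an adjusted p of 0.505 in limma. Jun differed by 0.04, Maff by 0.07 and Jund by 0.13, with adjusted p of 0.889 to 0.892 in limma. Of the relatives and corepressors of the EGR and NR4A factors, 0 of 4 passed, with a median of -0.13. Nr4a3, another orphan nuclear receptor, averaged 7.77 ± 0.10 in TBI rats and 7.94 ± 0.08 in control rats (SD), a difference of -0.17 at an unadjusted p of 0.011 and an adjusted p of 0.494 in limma. Nr4a2 differed by -0.20, Nab2, a corepressor of EGR proteins, by -0.08 and its relative Nab1 by 0.02, with adjusted p of 0.871 to 0.967 in limma.

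Among the other rapid response genes, 25 of 28 were measured, 0 passed, and 18 differences were positive and 7 negative with a median of 0.02. Zfp36 encodes tristetraprolin, which shortens the life of RNAs with AU-rich elements. It averaged 5.16 ± 0.10 in TBI rats and 4.96 ± 0.07 in control rats (SD), a difference of 0.20 at an unadjusted p of 0.0038 and an adjusted p of 0.328 in limma. Ier3, a stress-induced survival gene, averaged 4.51 ± 0.14 in TBI rats and 4.31 ± 0.11 in control rats (SD), a difference of 0.20 at an unadjusted p of 0.018 and an adjusted p of 0.577 in limma. Myc differed by 0.10 and Trib1 by 0.06, with adjusted p of 0.863 and 0.867 in limma.

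The late genes that activity turns on after the immediate early factors were measured for 10 of 14, and 0 passed, with a median of -0.02. Scg2, which encodes the granule protein secretogranin II, averaged 9.20 ± 0.10 in TBI rats and 9.34 ± 0.05 in control rats (SD), a difference of -0.15 at an unadjusted p of 0.015 and an adjusted p of 0.553 in limma. Bdnf, the neurotrophin whose activity-driven promoters Npas4 and CREB bind, differed by -0.10, Rasgrp1 by -0.11 and Plk3 by -0.07, with adjusted p of 0.843 to 0.889 in limma. Upstream of the response, 19 of 26 kinases and transcription factors were measured and 0 passed, with a median of -0.0025. Crtc1, a coactivator of CREB, differed by -0.09 and Mef2d by 0.10, at unadjusted p of 0.034 and 0.049 and adjusted p of 0.667 and 0.725 in limma. Prkaca, a catalytic subunit of protein kinase A, differed by -0.17 and Mrtfa, a coactivator of SRF, by 0.08, with adjusted p of 0.808 and 0.908 in limma. All 5 medians stood beside 0.01 over all genes.

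The spread between rats of a group was wide for most of the 10 genes. The SD within groups was 0.23 for Egr1, 0.22 for Arc, 0.21 for Egr4, 0.20 for Junb, 0.19 for Npas4 and 0.17 for Nr4a1, against a median of 0.10 over all genes. These 6 genes lay at percentiles 83.0 to 92.4 of all genes in spread. Egr3 lay at percentile 67.0, Fos at 55.5, Fosb at 47.7 and Egr2 at 1.08. Part of this spread was 1 rat. Without control rat 1 the percentile was 22.6 for Nr4a1, 25.2 for Fos and 77.7 for Egr1, while Junb at 83.8, Egr4 at 85.0, Arc at 85.9 and Npas4 at 88.2 remained high.

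Control rat 1 lay above the median of the 11 rats in 10 of 10 genes and was the highest rat in 5 of them, Fos, Junb, Arc, Egr1 and Nr4a1. It was the highest rat in 11.3% of all genes. TBI rat 4 lay above the median in 9 of 10 genes, and TBI rat 1 in 0 of 10. With each gene scaled over rats, the mean of the 10 genes with group means removed was 1.50 in control rat 1, 0.79 in TBI rat 4 and -0.68 in TBI rat 1, and lay between -0.58 and 0.05 in the other 8 rats.

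**Figure D3:**
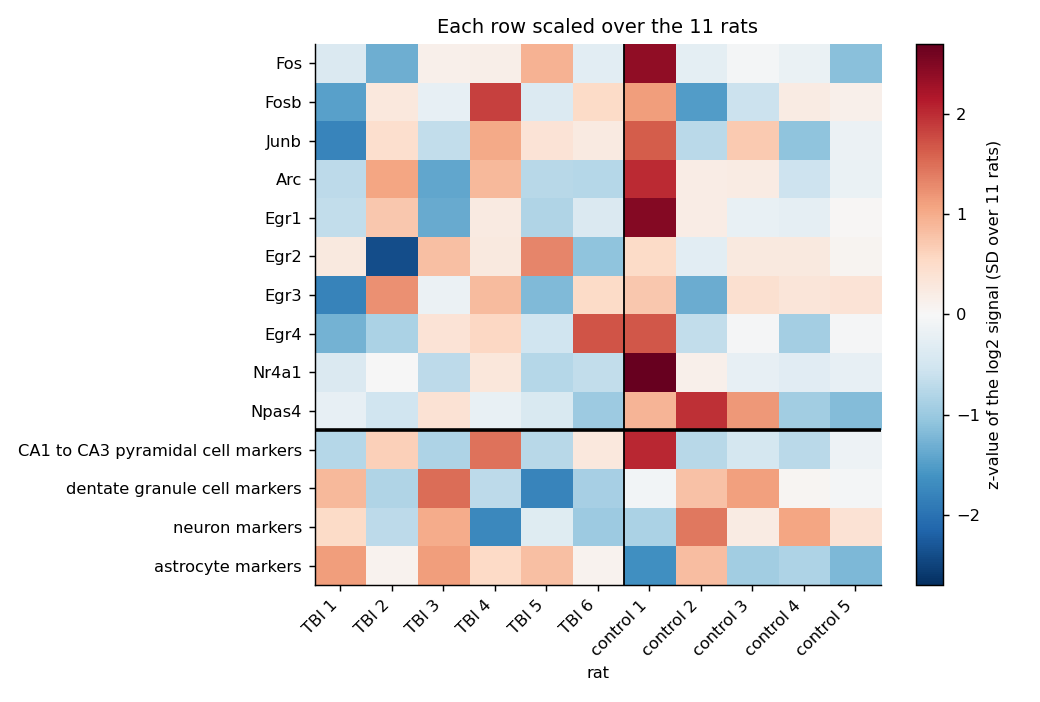
Rows are the 10 genes and, under the thick line, the summed signals of 4 lists of cell type markers. Columns are the 6 TBI rats and the 5 control rats, and color is the z-value of the log2 signal over the 11 rats. Control rat 1 is above the median in all 10 genes and highest in the CA1 to CA3 markers, and TBI rat 1 is above it in 0 of 10.

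Some of the 10 genes moved together over rats. With group means removed, the 45 pairs had a median Pearson r of 0.43, with a range of -0.48 to 0.94, and 36 of the 45 were positive. The median over all 137307306 pairs of genes was 0.04. An exact permutation test over the 86400 orders of rats within groups, adjusted over the 45 pairs, passed 5 pairs, and 10 passed without adjustment. With Spearman's rho, for which the median was 0.32, 1 pair passed after adjustment and 9 before it. Pairs with r of at least 0.7 made up 13.3% of the 45 pairs and 7.42% of all gene pairs.

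Arc, Egr1 and Nr4a1 formed the tightest group. Arc with Egr1 had r = 0.94 (rho = 0.79), and adjusted p = 0.026 for r and 0.101 for rho in the exact permutation test. Egr1 with Nr4a1 had r = 0.92 (rho = 0.86), adjusted p = 0.036 for r and 0.040 for rho in the same exact test. Arc with Nr4a1 had r = 0.83 (rho = 0.71), adjusted p = 0.036 for r and 0.101 for rho in the exact test. Within the 6 TBI rats alone the r of these pairs was 0.96, 0.81 and 0.91, and without TBI rat 2 and control rat 1, the 2 rats farthest from the median of the first gene, it was 0.88, 0.82 and 0.89. The r of the 3 genes with each other was 0.81 or more in each of these sets of rats.

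The other pairs that passed were less alike. Fosb with Egr3 had r = 0.82 (rho = 0.78, exact permutation, adjusted p = 0.036 for r and 0.101 for rho), and r = 0.59 without TBI rat 1 and control rat 2. Fos with Egr2 had r = 0.59 (rho = 0.68, exact permutation, adjusted p = 0.036 for r and 0.111 for rho), with r = 0.74 without TBI rat 5 and control rat 1, on the narrow range of Egr2 given above. Egr2 had negative r with Arc (-0.37), Egr1 (-0.37) and Egr3 (-0.48), none of which passed. Npas4 stood by itself: its r with the other 9 genes lay between -0.34 and 0.36, and none passed.

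The count of pairs that passed changed with the rats included. It was 0 without control rat 1, without TBI rat 3, without TBI rat 4 or without TBI rat 5, 1 without TBI rat 2 or without TBI rat 6, 2 without control rat 2, 3 without TBI rat 1, 5 without control rat 3 or without control rat 5 and 6 without control rat 4. Each such set also has fewer orders to permute. The median r of the 45 pairs was 0.40 to 0.50 in 10 of these 11 sets, and 0.50, 0.41 and 0.45 without TBI rats 3, 4 and 5. Without control rat 1 the median r of the 45 pairs was 0.12 and 26 were positive, against a median of 0.05 over all gene pairs, and pairs at r of at least 0.7 made up 11.1% against 8.20%. The trio kept r of 0.93 for Arc with Egr1, 0.81 for Egr1 with Nr4a1 and 0.88 for Arc with Nr4a1, with adjusted p of 0.121, 0.222 and 0.138 in the exact permutation test. Fos changed sides: with Egr1 its r was 0.42 over all rats and -0.59 without control rat 1, and with Nr4a1 0.67 and -0.35. Within the 6 TBI rats the median r was 0.11 and 0 pairs passed. The orders of 6 rats are so few that no pair could pass by itself after adjustment, whatever its r. This 0 therefore says little about covariation. Without control rat 1 and TBI rat 4, a choice made after the values were seen, the median was 0.0075 and 0 pairs passed.

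**Figure D4:**
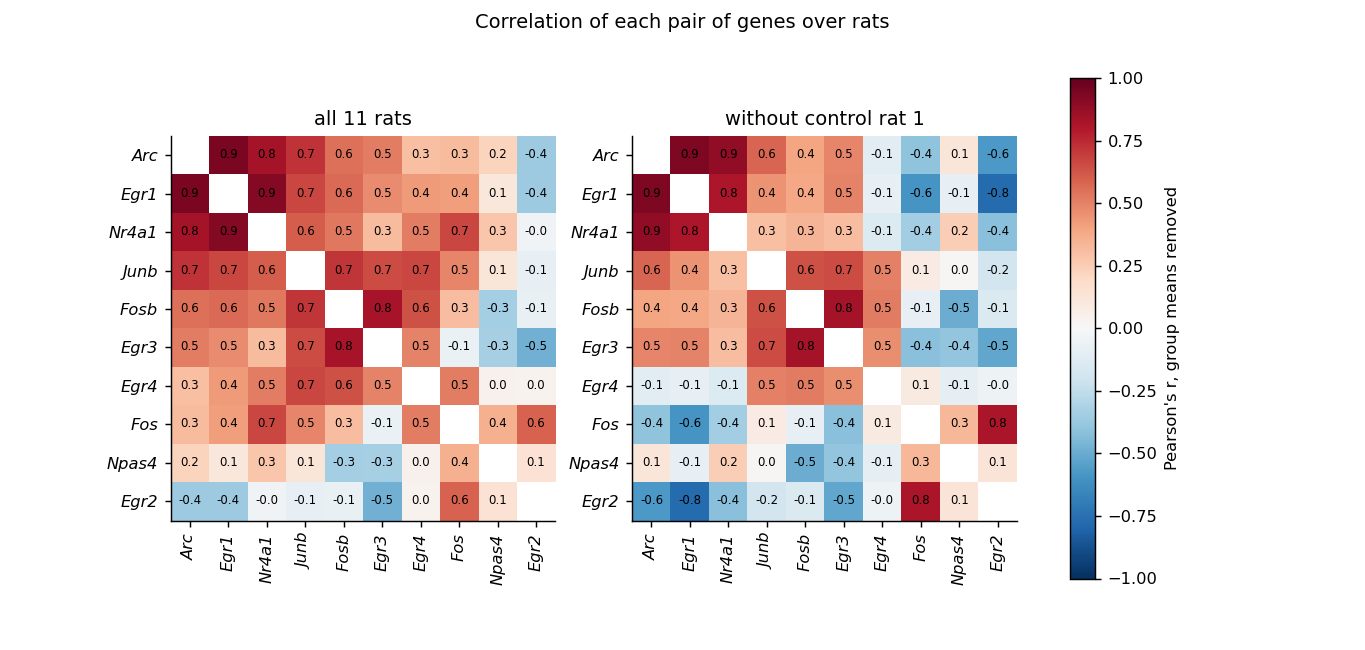
Pearson's r of each pair of the 10 genes, with group means removed, is given by color and number over all 11 rats at left and without control rat 1 at right. The block of Arc, Egr1 and Nr4a1 stays red at 0.81 to 0.93 without that rat, while Fos turns from positive to negative with Arc, Egr1 and Nr4a1.

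Markers of a neighbouring field of the hippocampus were read beside these values. The summed signal of 4 markers of CA1 to CA3 pyramidal cells (Wfs1, Fibcd1, Pou3f1 and Mpped1) was, on the log2 scale, lowest at 8.25, 8.49 at the median and highest at 9.17 in TBI rats. In control rats 1 to 5 it was 9.40, 8.28, 8.39, 8.29 and 8.53. Control rat 1 and TBI rat 4, the rats with the highest mean of the 10 genes, were also the highest here. Wfs1, which marks CA1, was 8.57 in control rat 1 against at most 8.20 in the other rats. It had the highest mean signal of the 4 markers. No marker of CA3 alone was read, so the sum does not show CA3 tissue by itself. With group means removed, the summed signal had an r of 0.90 with the mean of the 10 genes, and of 0.83 without control rat 1. By gene, r was 0.91 for Egr1 (rho = 0.77), 0.88 for Arc (rho = 0.65), 0.86 for Nr4a1 (rho = 0.51), 0.82 for Fosb (rho = 0.79), 0.79 for Junb (rho = 0.75), 0.67 for Egr3 (rho = 0.89), 0.64 for Egr4 (rho = 0.50), 0.42 for Fos (rho = 0.11), -0.24 for Egr2 (rho = -0.44) and -0.0060 for Npas4 (rho = -0.19). At an unadjusted p of 0.05, 7 of the 10 genes passed for r in the exact permutation test, all with a positive r. The share of all genes that would pass with this sum was not computed, so the count cannot be read as particular to these genes. The sum itself had an r of -0.74 with the component that held 63.9% of the variance within the groups. The exact permutation p of the first 5 was 0.0025 to 0.0075 for r, and 0.081 to 0.084 after adjustment over the 90 relations of 9 marker lists with 10 genes, so that 0 of the 90 passed for r and 0 for rho. The p for rho of these 5 was 0.0055 to 0.064 before adjustment in the same exact test, and that of Egr3 was 0.0046. Without TBI rat 4 and control rat 1, the 2 rats farthest from the median marker sum, r was 0.81 for Egr1, 0.69 for Arc, 0.62 for Fosb, 0.58 for Junb and 0.45 for Nr4a1. For Fos it was -0.38 without control rat 1 and -0.75 without both of these rats. Within the 6 TBI rats it was 0.83 for Egr1, 0.85 for Arc and 0.84 for Nr4a1. These relations were looked at after the values of the 10 genes were seen, and the part of the pyramidal cell RNA in the differences between rats was not tested.

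**Figure D5:**
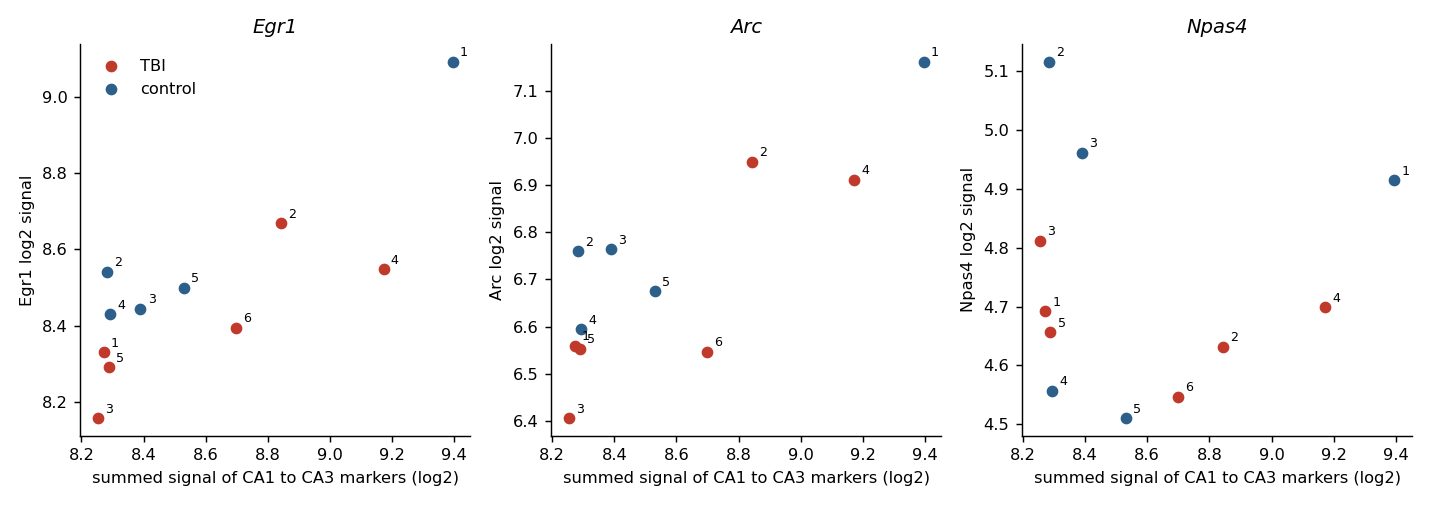
The log2 signal of Egr1, Arc and Npas4 (y axes) is plotted against the log2 of the summed signal of 4 CA1 to CA3 pyramidal cell markers (x axis), 1 numbered point per rat. Egr1 and Arc are highest in control rat 1 at 9.40 on the x axis, and Npas4 shows no such order.

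The other marker lists were read in the same way. The summed signal of 3 neuron markers (Rbfox3, Snap25 and Syn1) lay between 11.89 and 12.17 in TBI rats and between 11.98 and 12.22 in control rats. It had an r of -0.80 with the mean of the 10 genes, and 6 of the 10 genes passed an unadjusted p of 0.05 with it, all with a negative r, but 0 after adjustment. The share of all genes that would pass with the neuron sum was not computed either. This count therefore cannot be read as particular to the 10 genes. The 3 markers were not alike: r was -0.77 for Snap25 and -0.63 for Rbfox3, but 0.12 for Syn1. For the other lists r was -0.30 for the 5 granule cell markers, 0.05 for the 3 interneuron markers, -0.52 for the 5 astrocyte markers, -0.21 for the 5 microglia markers, 0.34 for the 3 oligodendrocyte markers, -0.24 for the 3 endothelial markers and -0.33 for the 3 choroid plexus markers. Each of these lists held single markers of both signs, and a sum follows its markers of highest signal. Among granule cell markers r was 0.69 for Dsp and 0.46 for Tdo2, but -0.50 for Prox1, -0.45 for Calb1 and -0.06 for C1ql2. Slc32a1 had 0.57 and Gad1 0.41 against -0.48 for Gad2, and Kcnj13 0.69 and Folr1 0.60 against -0.34 for Ttr. Leaving out control rat 1 gave the sums an r of -0.79 for the neuron, -0.32 for the granule cell and 0.30 for the oligodendrocyte markers. It was 0.44 for the interneuron, -0.25 for the astrocyte and -0.06 for the choroid plexus markers, and the sign turned to 0.27 for the microglia and 0.35 for the endothelial markers. With the within-group component, the mean of the 10 genes had an r of -0.65. Junb at -0.83, Fosb at -0.82 and Egr3 at -0.78 followed the component most, while Arc and Egr1 had -0.57 each, Nr4a1 -0.39 and Npas4 0.38. Among the other marker sums, r with the component was 0.93 for neuron, 0.83 for astrocyte, 0.72 for granule cell and -0.63 for oligodendrocyte markers. For choroid plexus, microglia, endothelial and interneuron markers it was 0.46, 0.34, 0.15 and 0.11. After the component was removed, the median r of the pairs was 0.27 and 4 pairs passed in the exact permutation test. The shares of these sources in the covariation were not tested.

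The 10 other genes most like the mean of the 10, over 11 rats with group means removed, were Spindoc, Or10g1, Ncf1, Ifna5, Cdk20, Kif2b, Il2ra, Slc43a1, Sost and Ccdc40, with r of 0.94 to 0.96. None is on the lists of activity-regulated genes used here. Control rat 1 was the highest rat in 9 of them, the exception being Slc43a1 with TBI rat 4. In Spindoc the values were 5.66 at the lowest, 5.82 at the median and 5.99 at the highest in TBI rats, against 6.10, 5.78, 5.81, 5.80 and 5.81 in control rats 1 to 5. Ifna5, Kif2b and Il2ra had 1 identical value in 6, 7 and 6 of the 11 rats. Several of these genes had low signals. Or10g1 ran from the background value of 3.06 to 3.20, and Ifna5, Kif2b, Slc43a1 and Il2ra lay between 3.67 and 4.39. Only Spindoc, Cdk20 and Sost lay above the array medians in every rat. Without control rat 1 the r of these 10 genes with the mean of the immediate early genes was 0.77 to 0.93. Their ranks among all genes were 13 to 582.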

How the data were processed

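The authors hybridized RNA of each left dentate gyrus to 1 Affymetrix Rat Gene 1.1 ST array. They deposited log2 signals after RMA normalization in oligo (version 1.30.0 in the submitters' processing notes), which makes the distributions of the arrays alike, so differences are relative. The methods set values below the median of the antigenomic probes to that median; here this background was taken as the lowest value in the readable part of a supplementary table of the study, and lower values were set to it. Of 18644 probe sets with 1 gene symbol, 739 were dropped because more than 5 arrays did not exceed that background. Probe sets with several symbols (962) or none (9608) were not used. Each gene was read from its probe set with the highest mean.

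TBI and control rats were compared in limma 3.58.1 under R 4.3.3, with Benjamini-Hochberg adjustment over 17905 probe sets. Exact two-sided permutation tests of single genes and of correlations used SciPy 1.17.1 and NumPy 2.4.6 under Python 3.11.15. Simulated data with known changes served as a check of the code, and matplotlib 3.10.9 drew the plots. The number of arrays limits the precision. The values and labels used here gave no scan or slide batch.

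The 10 genes, the lists and the tests were chosen with earlier results of these data known. Named beside the 10 genes are up to 4 genes per list with the lowest p and the 10 genes most like their mean. Alternatives were no filter, a higher filter, centred and requantiled arrays, a trended prior, the analysis of variance of the methods, weights per array, the replicate block, averaged probe sets, other correlation settings and leaving out rats.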

Additional observations from a re-analysis of the deposited data

Results flagged for a closer look

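In 3 of the 20 groups of values tested (10 genes in 2 groups), 1 rat stood apart by Dixon's criterion at 95%, which chance alone passes in about 1 group of 20. Egr1 was 9.09 in control rat 1, and the gap to the next control rat took up 0.831 of the group's range. Nr4a1 was 6.16 in the same rat, with 0.856 of the range. Egr3 was 7.64 in control rat 2, below the other 4 control rats, with 0.805 of the range. Egr1 and Nr4a1 are correlated over rats, so their gaps are not separate observations. Control rat 1 also had the highest summed CA1 to CA3 markers, 9.40 on the log2 scale, and control rat 2 is 1 of the 3 rats that stood apart on the within-group component, at 0.45. The part of these in the gaps was not tested.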

How the results depend on the processing

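Under 22 settings beside the one reported, 0 immediate early genes passed in each, and their median difference kept its sign, from -0.064 to -0.0055 with 1 rat left out. The higher filter, a mean log2 of at least 5, kept 7 of the 10 genes and dropped Fosb, Egr2 and Npas4. Arc, Egr1 and Nr4a1 had a negative difference in every setting, and Npas4 in every setting that kept it. The other 6 changed sign in some. Fosb was -0.0016 with arrays centred on their median and -0.0038 after a second quantile normalization. Fos was 0.031 and Junb 0.045 with array weights. Without control rat 1 and TBI rat 4 (chosen after the values were seen), Fos was 0.022, Junb 0.0078 and Egr4 0.057. Without control rat 2, TBI rat 1 and TBI rat 3 (likewise chosen later), Junb was 0.046 and Egr4 0.0076. With 1 rat left out, Fos ran from -0.062 to 0.028, Fosb from -0.012 to 0.049, Junb from -0.079 to 0.048, Egr2 from -0.016 to 0.0041, Egr3 from -0.067 to 0.017 and Egr4 from -0.071 to 0.079, while Arc ran from -0.20 to -0.044, Egr1 from -0.26 to -0.080, Nr4a1 from -0.18 to -0.040 and Npas4 from -0.21 to -0.063. The causes were not tested.

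The number of probe sets called over all genes was 27, and 9 with centred arrays (6 higher, 3 lower, against 25 and 2), 11 after quantile normalization, 8 with the methods' test, 310 with array weights, 2 without control rat 1 and TBI rat 4, 271 without control rat 2, TBI rat 1 and TBI rat 3, and 5 to 34 with 1 rat left out. At an unadjusted p of 0.05, 888 were higher and 334 lower, against 502 and 678 with centred arrays. The pairs of genes that passed numbered 5, and 1 with Spearman's rho, 0 within TBI rats (median r 0.11), 0 without control rat 1 and TBI rat 4 (median r 0.0075), 0 without control rat 2, TBI rat 1 and TBI rat 3 (median r 0.51), and 0 to 6 with 1 rat left out (median r 0.12 to 0.50, against 0.43 over all rats). Fewer rats also leave fewer orders to permute. Within TBI rats, and without control rat 2, TBI rat 1 and TBI rat 3, no pair could pass by itself after adjustment.

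Rats of both groups carry replicate numbers, but same-numbered rats did not deviate together (r of -0.66, -0.50, -0.41, -0.26 and 0.11 for numbers 1 to 5). With the replicate block, 3 probe sets and 0 of the 10 genes passed, and 0 pairs passed, with a median r of 0.68 over 10 rats.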
